A study of Homo sapiens with 12 samples.

Results

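The comparison described here is the silencing of WWTR1 in cells that were also given erastin: 3 arrays of RCC4 cells with an siRNA against WWTR1 (siTAZ) were set against 3 arrays of RCC4 cells with a non-targeting siRNA (siNT), both under erastin. These are 6 of the 12 arrays of the study. The other 6 carried the same pair of siRNAs in DMSO vehicle, and they were used for the shared estimate of spread and for the test of whether an effect differed between the media. RCC4, an established line, comes from a human clear cell carcinoma of the kidney and lacks functional VHL, a background that all 4 groups share. Cells had 2 days of siRNA and then 7 hours of 1 µM erastin or of vehicle. The submitters describe biological triplicates, and the sequence of the siRNAs was not used here. All genes on the array entered the comparison, each through its brightest probe set on average over the 12 arrays, which gave 11963 genes.

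TAZ is the protein encoded by WWTR1 and is unrelated to tafazzin, which has carried the same short name. TAZ and its paralogue YAP have no DNA-binding domain of their own. When the Hippo kinases LATS1 and LATS2 are inactive, as in sparse or spread cells, both coactivators enter the nucleus and bind TEAD transcription factors at genes for matrix, adhesion and growth. Erastin blocks system xc-, the exchanger that brings in cystine for glutathione synthesis. Without glutathione the lipid peroxidase GPX4 cannot work, and iron-dependent peroxidation of polyunsaturated phospholipids can end in the form of death called ferroptosis. Cells short of cystine also activate the amino acid branch of the integrated stress response, whose transcription factor is ATF4.

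Values are log2 signals made with RMA by the authors, so a difference of 1 is a 2-fold difference. The words rose and fell are kept for genes whose difference, siTAZ minus siNT, had a Benjamini-Hochberg adjusted p under 0.05 in limma over all 11963 genes. Differences are given ± the standard error of that fit, with n = 3 arrays per group. On this rule 3369 genes (28.2%) changed, of which 1867 rose (15.6%) and 1502 fell (12.6%). The 3 siTAZ values lay wholly above the 3 siNT values in 2523 genes and wholly below them in 2122, together 38.8% of genes. Most of the calls were small: 84 rises and 61 falls reached 2-fold, and the median difference over all genes was 0.01. In vehicle the same contrast called 3419 genes (28.6%). An exact permutation test of 1 gene cannot reach a p under 0.1 with groups of 3, so none was made.

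The 2 groups also differed in a control for RNA and labelling quality. The log2 signal of the 3′ control probe set of actin minus that of the 5′ one was 2.82, 2.47 and 1.49 on the siNT arrays and 3.01, 3.63 and 3.12 on the siTAZ arrays, in order of replicate. The siTAZ arrays were all higher, and siNT replicate 3 was the lowest of the 12 arrays. The same difference for GAPDH was 0.22, 0.15 and 0.07 on the siNT arrays and 0.17, 0.27 and 0.16 on the siTAZ arrays, and there the groups overlapped. With the actin difference as a covariate in the fit, 2556 genes (21.4%) were called, 1513 upward and 1043 downward. Of the genes that rose without the covariate, 1260 (67.5%) rose with it too, and of those that fell, 780 (51.9%). All 84 rises and 61 falls of at least 2-fold were among them. Between a log2 difference of 0.5 and 1, 440 of 458 rises and 240 of 275 falls were called in both fits, and under 0.5 it was 736 of 1325 and 479 of 1166. Small falls were therefore called in both fits least often. Counts of list members are given first without this covariate and then with it, and the part of RNA quality in any 1 gene was not tested beyond that. Each count is to be read beside the share of all genes, 15.6% for rises and 12.6% for falls. With the covariate that is 1513 and 1043 of 11963.

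**Figure D1:**
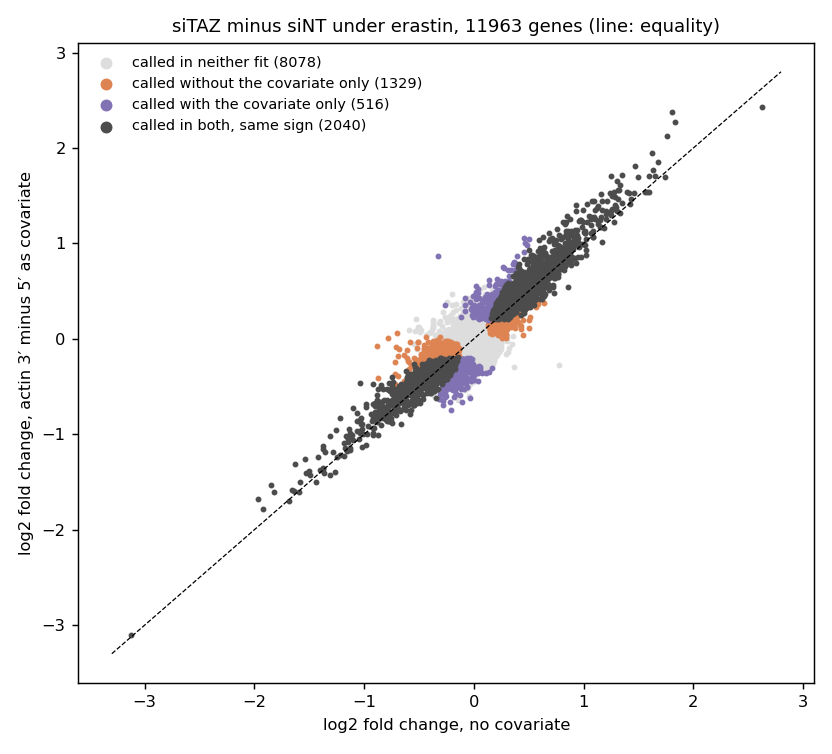
Each point is 1 of 11963 genes, with the log2 fold change of siTAZ against siNT under erastin without a covariate on the x axis and with the actin 3′ minus 5′ difference as a covariate on the y axis; the dashed line marks equal values. The 2040 genes called in both fits with the same sign hold every change of 1 or more, while the 1329 genes called without the covariate only lie nearer to 0.

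The markers of RCC4 cells were bright and those of other cell types were dim. The mean log2 signal of 10 measured lineage markers, among them PAX8, CA12 and VIM, was between 11 and 11.11 on the 6 arrays. Lists of leukocyte, endothelial, erythroid and fibroblast markers had means between 4.41 and 4.98 on these 6 arrays, and 0 of their members rose or fell in limma. With the actin covariate 1 endothelial marker fell, and with 1 array left out there was 1 leukocyte rise (siTAZ replicate 3), 2 endothelial falls (siTAZ replicate 2) or 1 fibroblast or pericyte fall (siNT replicate 3). At an unadjusted p under 0.05, 0 leukocyte markers were higher and 0 lower, 0 endothelial markers were higher and 1 lower, 0 erythroid markers were higher and 0 lower, and 0 fibroblast or pericyte markers were higher and 0 lower. Of the lineage markers 5 rose and 3 fell, so the identity of the cells is read from their level and not from a change. A signal below 6 is called dim here. In a bulk culture, fewer cells of one kind and less RNA in each cell cannot be told apart.

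WWTR1 itself was lower on all siTAZ arrays than on any siNT array. Its log2 signals were 12.35, 12.19 and 12.27 on the siNT arrays and 9.10, 9.09 and 9.25 on the siTAZ arrays. The groups were far apart, with a fall of 3.12 on the log2 scale that left 11.5% of the control signal. The other WWTR1 probe sets, which are dimmer, had differences of −3.35 and −3.57. YAP1, the paralogue, had signals of 8.47, 8.52 and 8.65 on the siNT arrays and 8.52, 8.44 and 8.65 on the siTAZ arrays. These values overlapped, and the difference of −0.01 ± 0.07 did not pass the test (adjusted p = 0.943 in limma).

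**Figure D2:**
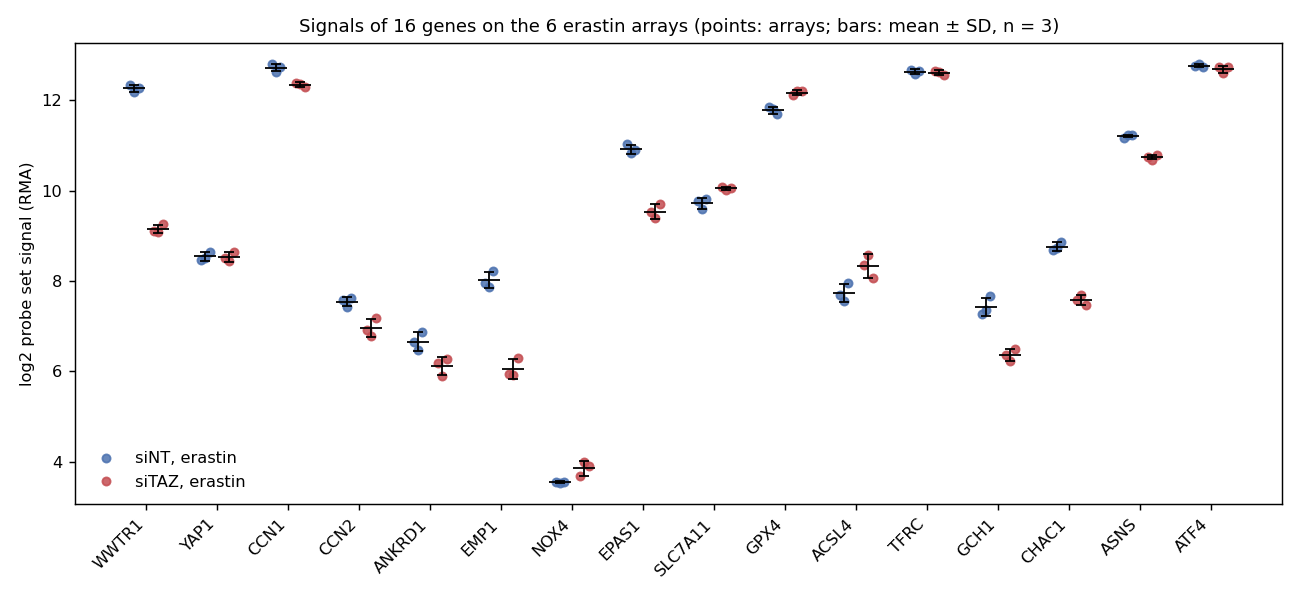
Log2 probe set signals of 16 genes on the 6 erastin arrays; points are arrays, blue for siNT and red for siTAZ, and black bars are the mean ± SD with n = 3. WWTR1 drops from about 12 to 9, EMP1, EPAS1, GCH1 and CHAC1 are separated downward, GPX4 and ACSL4 upward, and YAP1, TFRC and ATF4 overlap.

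Among the other parts of the Hippo pathway, 5 of 24 measured genes rose and 3 fell, WWTR1 included, beside 15.6% and 12.6% of all genes. The rises were in TEAD1 by 0.73 ± 0.10, TEAD3 by 0.20 ± 0.06 and TEAD4 by 0.19, VGLL4, a TEAD cofactor that competes with YAP and TAZ, by 0.32 ± 0.05, and the kinase gene STK3, which encodes MST2, by 0.38 ± 0.07. TEAD1 signals were 7.14, 7.11 and 7.19 on the siNT arrays and 7.99, 7.84 and 7.82 on the siTAZ arrays, with no overlap. The calls of TEAD3 and TEAD4 were lost with the actin covariate, which left 3 rises and 3 falls. Without siNT replicate 3 or siTAZ replicate 2 the rises also numbered 3, and without siNT replicate 1, siTAZ replicate 1 or siTAZ replicate 2 the falls numbered 1. A second probe set of STK3 gave 0.15.

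Of 20 measured genes of a YAP/TAZ target signature, 8 fell and 2 rose, with a median difference of −0.15. With the actin covariate 7 fell and 3 rose, and without siNT replicate 1, siNT replicate 2, siTAZ replicate 1 or siTAZ replicate 3 there was 1 rise. CCN1 and CCN2 encode secreted matrix-associated proteins that are the usual readouts of the pathway. CCN1 was among the brightest signals, at 12.81, 12.63 and 12.73 on the siNT arrays and 12.39, 12.36 and 12.29 on the siTAZ arrays. It fell by 0.38 on the log2 scale with separate groups, and its second probe set, which is also bright, gave −0.67. CCN2 had signals of 7.58, 7.43 and 7.62 on the siNT arrays and 6.93, 6.78 and 7.19 on the siTAZ arrays, a difference of −0.58 ± 0.10. ANKRD1, an ankyrin repeat protein gene, was at 6.65, 6.46 and 6.87 and at 6.18, 5.89 and 6.28, a difference of −0.54 ± 0.11, and its call was lost with the actin covariate (−0.29, adjusted p = 0.14 in limma). On the probe sets that stood for genes, the largest fall of the list was F3, the gene for tissue factor, at −1.59 ± 0.07. The stress gene GADD45B was at −0.79 ± 0.06, DLC1 at −0.69 ± 0.08, and FJX1 at −0.59 ± 0.07, close to CCN2. Other probe sets gave −1.09 to −0.29 for GADD45B and −0.81 and −0.09 for DLC1. NT5E, the gene for the nucleotidase CD73, rose by 0.50. DOCK5, which was dim in both groups, rose by 0.28, with a second probe set at 0.11.

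The promoters of CCN2 and ANKRD1 are shown because their TEAD motifs can be seen directly. Sequences run 5′ to 3′ along the gene from 250 bases before to 50 bases after the start site, from RefSeq on GRCh38.p14. Capitals mark matches on either strand to the TEAD motif GGAATG, which reads CATTCC on the other strand, to the AP-1 motif TGANTCA or to a composite motif bound by ATF4, TGATGNAA, which reads TTNCATCA on the other strand. CCN2 lies at chr6:131951323-131951622 on the minus strand and ANKRD1 at chr10:90921038-90921337 on the minus strand.
CCN2: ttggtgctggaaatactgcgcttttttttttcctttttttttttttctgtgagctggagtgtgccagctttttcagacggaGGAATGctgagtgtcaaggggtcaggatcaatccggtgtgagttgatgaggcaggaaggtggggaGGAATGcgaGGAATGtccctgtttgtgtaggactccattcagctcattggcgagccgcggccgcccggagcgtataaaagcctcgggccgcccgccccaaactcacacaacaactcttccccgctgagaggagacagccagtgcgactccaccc
ANKRD1: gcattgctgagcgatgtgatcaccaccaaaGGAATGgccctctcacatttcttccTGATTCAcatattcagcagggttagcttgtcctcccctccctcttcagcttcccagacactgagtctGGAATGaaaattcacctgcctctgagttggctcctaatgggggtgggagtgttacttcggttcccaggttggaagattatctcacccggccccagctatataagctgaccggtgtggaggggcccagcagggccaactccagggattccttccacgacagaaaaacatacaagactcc
CCN2 held 3 TEAD matches, and ANKRD1 held 2 with an AP-1 match between them. Among the 16 fixed genes whose promoters were matched, 3 (18.8%) held a TEAD match. The third was YAP1, which did not pass the test. A TEAD match was found in 14% of all 27305 promoters in the table, an AP-1 match in 7.76% and a composite ATF4 match in 3.67%. Promoters were matched for 21 of the 25 genes with the largest falls, and 0 of these held a TEAD match, 2 an AP-1 match (EMP1 and F3) and 0 the composite ATF4 match. Of the 25 genes with the largest rises 24 were matched, with 4 TEAD matches (FILIP1L, KIF3A, MID1 and SRPX2), 4 AP-1 matches (CXCL14, PDE4D, SRPX2 and ZBTB20) and 0 of the composite. A match describes letters in this window and shows no binding, and TEAD factors often act at distant enhancers.

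The 25 largest falls, among called genes with separate groups and a brighter mean of 6 or more, ran from a log2 difference of −3.12 (WWTR1) to −1.31. EMP1, an epithelial membrane protein of the claudin-like PMP22 family, followed WWTR1. Its signals were 7.95, 7.88 and 8.23 on the siNT arrays and 5.95, 5.91 and 6.30 on the siTAZ arrays. This was a fall of 1.97 on the log2 scale, with a second probe set at −1.47 and a dim one at −0.10. DDIT4, an mTORC1 inhibitor, was at 11.29, 11.14 and 11.38 on the siNT arrays and at 9.32, 9.19 and 9.52 on the siTAZ arrays, and its groups were 1.62 apart at their nearest values. IRS2, an adaptor of the insulin and IGF1 receptors, was at 11.35, 11.36 and 11.60 and at 10.14, 9.95 and 10.11, a difference of −1.37 ± 0.09 with the second probe set at −1.31. 

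EPAS1 encodes HIF-2α, the hypoxia-inducible factor subunit that accumulates when VHL is lost. Its signals were 11.03, 10.83 and 10.89 on the siNT arrays and 9.52, 9.39 and 9.71 on the siTAZ arrays, a difference of −1.38 ± 0.08, although a dim second probe set gave 0.01. MAFF, a small Maf transcription factor gene, was at 9.81, 9.72 and 9.84 and at 8.28, 8.27 and 8.35, a difference of −1.49 ± 0.06 that the second probe set (−0.93) shared. INSIG2, which holds the sterol sensor SCAP in the endoplasmic reticulum, was at 8.24, 8.25 and 8.40 and at 6.88, 6.69 and 7.06, a difference of −1.42 ± 0.09. All 3 genes had separate groups.

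AZIN1, which encodes the antizyme inhibitor that keeps polyamine synthesis active, was at 10.64, 10.70 and 10.75 on the siNT arrays and at 9.15, 9.09 and 9.10 on the siTAZ arrays. Its difference was −1.58 ± 0.05, with dimmer probe sets at −0.46 and −0.36. NIP7 (−1.54 ± 0.13), a factor for ribosome assembly, NUP58 (−1.50 ± 0.09), a nuclear pore subunit, DAZAP1 (−1.44 ± 0.06) and LSM14B (−1.40 ± 0.11), both RNA-binding proteins, and FBXW2 (−1.36 ± 0.08) and FBXO3 (−1.31 ± 0.11), both F-box proteins of ubiquitin ligases, fell together with the syntaxin gene STX2 (−1.53 ± 0.07), the centromere protein gene OIP5 (−1.38 ± 0.09), NXPE3 (−1.63 ± 0.11) and DPYD (−1.37 ± 0.12), the enzyme that degrades uracil and thymine. The remaining falls were TNFRSF11B, ADM, SCG5, EVI2A, SLC39A6, F3 and ANGPTL4. A second probe set of STX2 gave −0.21 and one of FBXW2 gave −0.30. All 25 falls were called with the actin covariate as well, with 21 of them smaller there. All 25 were also called in vehicle, 11 with a larger and 14 with a smaller difference.

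The 25 largest rises ran from 1.29 to 2.62. CXCL14, a chemokine gene, had the largest, with signals of 7.06, 6.83 and 6.78 on the siNT arrays and 9.41, 9.51 and 9.62 on the siTAZ arrays, 6.16-fold apart. ELF3, an ETS transcription factor of epithelia, was at 7.20, 7.33 and 7.16 and at 8.82, 8.82 and 8.79, a rise of 1.58 ± 0.06 with the second probe set at 1.72. FGFR3, a fibroblast growth factor receptor gene, was at 7.10, 7.14 and 7.29 and at 8.86, 8.64 and 8.81, a rise of 1.59 ± 0.10 with a dim probe set at −0.20. In each of these genes the 3 siTAZ values lay more than 1 above every siNT value.

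The promoters of CXCL14 and EMP1, the genes with the largest rise and the largest fall after WWTR1, both held AP-1 matches. CXCL14 lies at chr5:135578942-135579241 on the minus strand and EMP1 at chr12:13196476-13196775 on the plus strand, and capitals again mark the matches.
CXCL14: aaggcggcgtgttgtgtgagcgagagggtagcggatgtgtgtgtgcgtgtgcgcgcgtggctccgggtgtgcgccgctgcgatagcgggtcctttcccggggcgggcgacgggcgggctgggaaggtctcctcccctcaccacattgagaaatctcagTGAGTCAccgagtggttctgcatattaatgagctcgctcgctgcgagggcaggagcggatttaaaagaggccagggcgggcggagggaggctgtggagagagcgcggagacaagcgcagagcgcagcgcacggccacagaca
EMP1: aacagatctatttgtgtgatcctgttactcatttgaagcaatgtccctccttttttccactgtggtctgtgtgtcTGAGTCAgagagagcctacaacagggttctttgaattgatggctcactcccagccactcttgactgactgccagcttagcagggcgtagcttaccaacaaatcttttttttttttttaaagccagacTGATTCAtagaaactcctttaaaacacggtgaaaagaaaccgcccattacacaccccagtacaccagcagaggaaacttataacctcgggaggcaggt
CXCL14 held 1 match and EMP1 held 2. Genes of opposite direction thus carried the same letters in this window.

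FMR1, the RNA-binding protein gene of fragile X syndrome, was at 8.68, 8.35 and 8.74 on the siNT arrays and at 10.24, 10.22 and 10.22 on the siTAZ arrays. It rose by 1.63 ± 0.10, with a second probe set at 0.84. TGFBR3, the gene for the TGF-beta coreceptor betaglycan, was at 6.95, 6.59 and 7.01 and at 8.32, 8.15 and 8.27, a rise of 1.40 ± 0.10. SEC24A (1.46 ± 0.06), a COPII coat subunit, RABGAP1L (1.31 ± 0.09), a regulator of Rab GTPases, STXBP6 (1.35 ± 0.10), a SNARE regulator, and KIF3A (1.29 ± 0.06), a kinesin motor of cilia, rose as well, as did MID1 (1.42 ± 0.06), a microtubule-bound ubiquitin ligase, and DRAM1 (1.31 ± 0.07), a lysosomal membrane protein. Other probe sets gave 0.56 for SEC24A, 0.06 for STXBP6, and 1.45 and −0.15 for MID1. FILIP1L, which encodes a regulator of filamin, was at 8.38, 8.27 and 8.30 and at 9.65, 9.63 and 9.66, a rise of 1.33 ± 0.05. PDE4D, a cyclic AMP phosphodiesterase, rose by 1.32 ± 0.10, while its 3 dim probe sets gave −0.02 to 0.28. The remaining rises were DENND5B, ZBTB20, ARHGAP5, PCYOX1L, SH3YL1, DESI2, NAP1L3, PLSCR4, LRP12 and SRPX2.

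For some of the rises the probe sets of a gene disagreed. IDE, the insulin-degrading enzyme gene, rose by 1.56 ± 0.07 on its brightest probe set, from 8.73, 8.50 and 8.61 to 10.21, 10.18 and 10.13, while the others gave 0.15 and 0.17. TECPR2, an autophagy-associated gene, rose by 1.74 ± 0.11 and its second probe set gave 0.33. Of the 25 rises, 14 had more than 1 probe set, all probe sets were called upward in 6, and 10 had a probe set with under 50% of the change. Of the 25 falls, 10 had several probe sets, all were called downward in 7, and 5 had one with under 50% of the change. All 25 rises were called with the actin covariate, 18 of them larger there, and all 25 were called in vehicle.

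**Figure D3:**
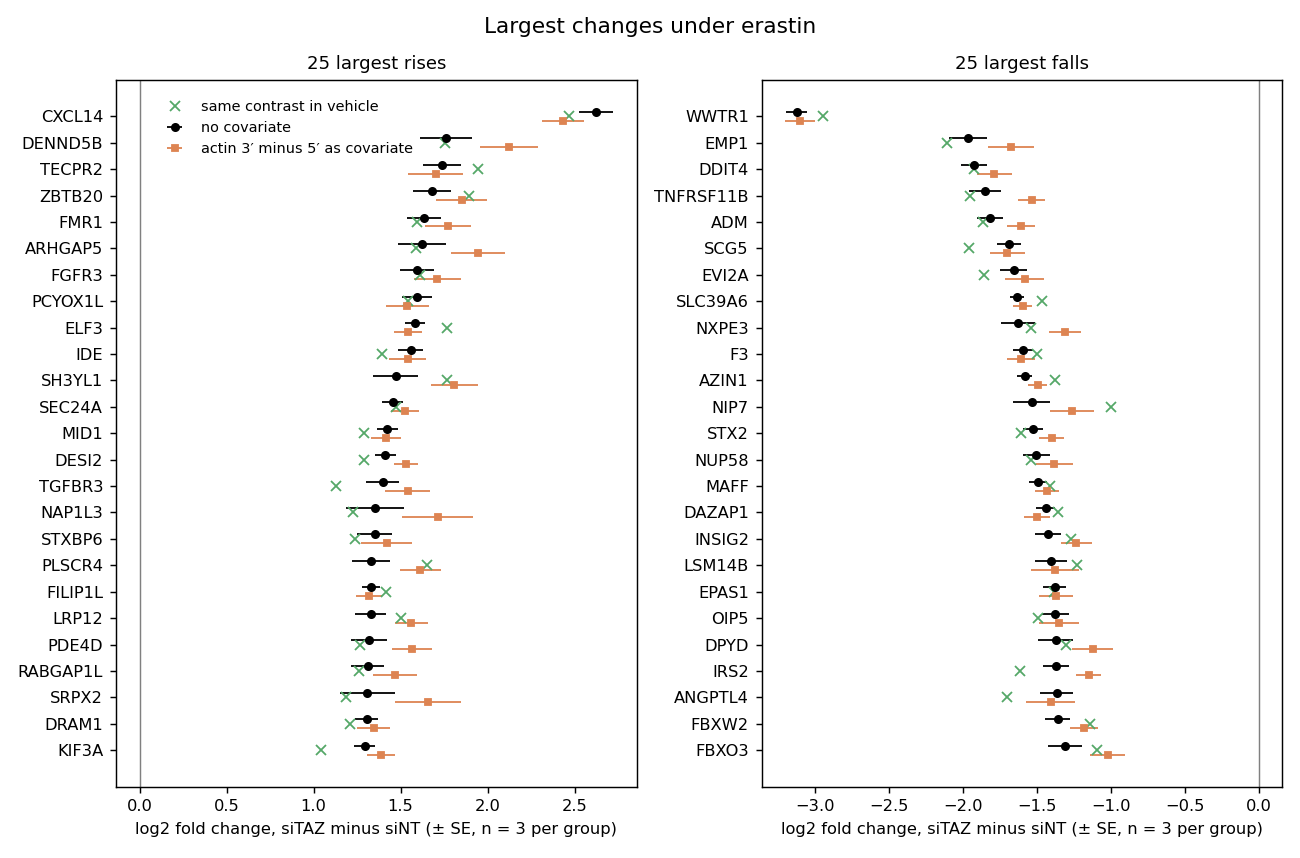
Log2 fold changes of the 25 largest rises (left) and falls (right), siTAZ minus siNT under erastin, with bars for the standard error (n = 3 per group); black circles are the fit without a covariate, orange squares the fit with the actin 3′ minus 5′ difference, green crosses the same contrast in vehicle. All 25 rises stay above 1 with the covariate, with CXCL14 at 2.43, and all 25 falls stay below −1.

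Genes of the machinery that erastin acts on were called in both directions, as genes in general were. Of 22 measured genes of cystine uptake and glutathione, 5 rose and 5 fell, with a median of −0.06, beside 15.6% and 12.6% of all genes. With the actin covariate 3 rose and 3 fell, beside 1513 and 1043 of all 11963 genes. SLC7A11, the transport subunit of system xc-, was at 9.76, 9.59 and 9.81 on the siNT arrays and at 10.09, 10.01 and 10.05 on the siTAZ arrays. All siTAZ values were higher, a rise of 0.33 ± 0.06 (adjusted p = 0.00136 in limma). Its dimmer probe sets gave 0.20 and −0.21. CHAC1, which degrades glutathione, was at 8.68, 8.73 and 8.86 and at 7.57, 7.70 and 7.48, a fall of 1.17 on the log2 scale that left 44.3% of the control signal. CTH, the enzyme that makes cysteine from cystathionine, was at 8.85, 8.93 and 9.25 and at 8.33, 8.20 and 8.28, a fall of 0.74 with separate groups. CBS, the enzyme before CTH in that route, was dim and rose by 0.41 ± 0.09. GCLM, the modifier subunit of the first glutathione enzyme, and the glutathione reductase gene GSR fell by 0.36 and by 0.31, and both calls were lost with the actin covariate.

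GPX4, the lipid peroxidase that opposes ferroptosis, was bright at 11.84, 11.80 and 11.70 on the siNT arrays and at 12.11, 12.20 and 12.20 on the siTAZ arrays. The groups did not overlap and the rise was 0.39 ± 0.07, but with the actin covariate it was 0.24 with an adjusted p of 0.0829 in limma. The GPX4 reductant pathway has a parallel in tetrahydrobiopterin, a radical-trapping cofactor made from GTP. GCH1, its rate-limiting enzyme, was at 7.27, 7.36 and 7.66 and at 6.36, 6.23 and 6.49, a fall of 1.06 on the log2 scale. QDPR, which recycles the cofactor, was at 10.07, 10.16 and 10.27 and at 9.56, 9.52 and 9.51, a fall of 0.63. The later enzymes of the synthesis went the other way: PTS rose by 0.26 ± 0.06 and SPR by 0.29 ± 0.05. Of the 6 measured genes of this pathway 2 rose and 2 fell, and with the actin covariate PTS was no longer called.

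Of 21 genes that activate, elongate or remodel polyunsaturated fatty acids, 4 rose and 5 fell, and 2 rose and 4 fell with the actin covariate. ACSL4, which activates arachidonic and adrenic acid for phospholipids, was at 7.68, 7.57 and 7.96 on the siNT arrays and at 8.36, 8.58 and 8.06 on the siTAZ arrays. The nearest values of the groups were 0.10 apart, and the rise was 0.60 ± 0.15 (adjusted p = 0.01 in limma, 0.0372 with the actin covariate). ELOVL5, the elongase of polyunsaturated chains, was at 11.35, 11.29 and 11.32 and at 10.34, 10.36 and 10.32, a fall of 0.98 on the log2 scale, though its dimmer probe sets gave 0.06 and 0.18. LPCAT1, which reacylates lysophosphatidylcholine, was at 10.68, 10.70 and 10.77 and at 9.52, 9.44 and 9.64, a fall of 1.18. ELOVL6, the elongase of saturated chains, rose by 0.43 ± 0.11, and ALOX5, a dim lipoxygenase gene, by 0.52 ± 0.13. The ALOX5 call was lost with the actin covariate (0.55 ± 0.19, adjusted p = 0.0668 in limma), where the difference was not smaller but its standard error was larger. The other 3 probe sets of ALOX5 gave −0.02 to 0.12.

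Iron and haem genes were likewise called in both directions, with 5 of 20 up and 6 down, beside 15.6% and 12.6% of all genes. With the actin covariate 2 were up and 3 down, beside 1513 and 1043 of all 11963 genes. HMOX1, the haem oxygenase that frees iron from haem, was at 10.76, 10.81 and 10.94 on the siNT arrays and at 9.84, 9.74 and 9.85 on the siTAZ arrays. It fell by 1.03 on the log2 scale with groups 0.91 apart. TFRC, the transferrin receptor gene, was at 12.68, 12.58 and 12.64 and at 12.65, 12.63 and 12.56, which overlapped, with a difference of −0.02 ± 0.05. HFE, which binds that receptor, rose by 0.54 ± 0.06 on its brightest probe set, while the others gave −0.07 to 0.52 and the mean of all gave 0.14. The number of rises in this list was 3 without siTAZ replicate 2. NOX4, an NADPH oxidase gene, was dim at 3.56, 3.53 and 3.55 and at 3.68, 3.99 and 3.90, and its difference of 0.31 ± 0.14 did not pass the test (adjusted p = 0.139 in limma).

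**Figure D4:**
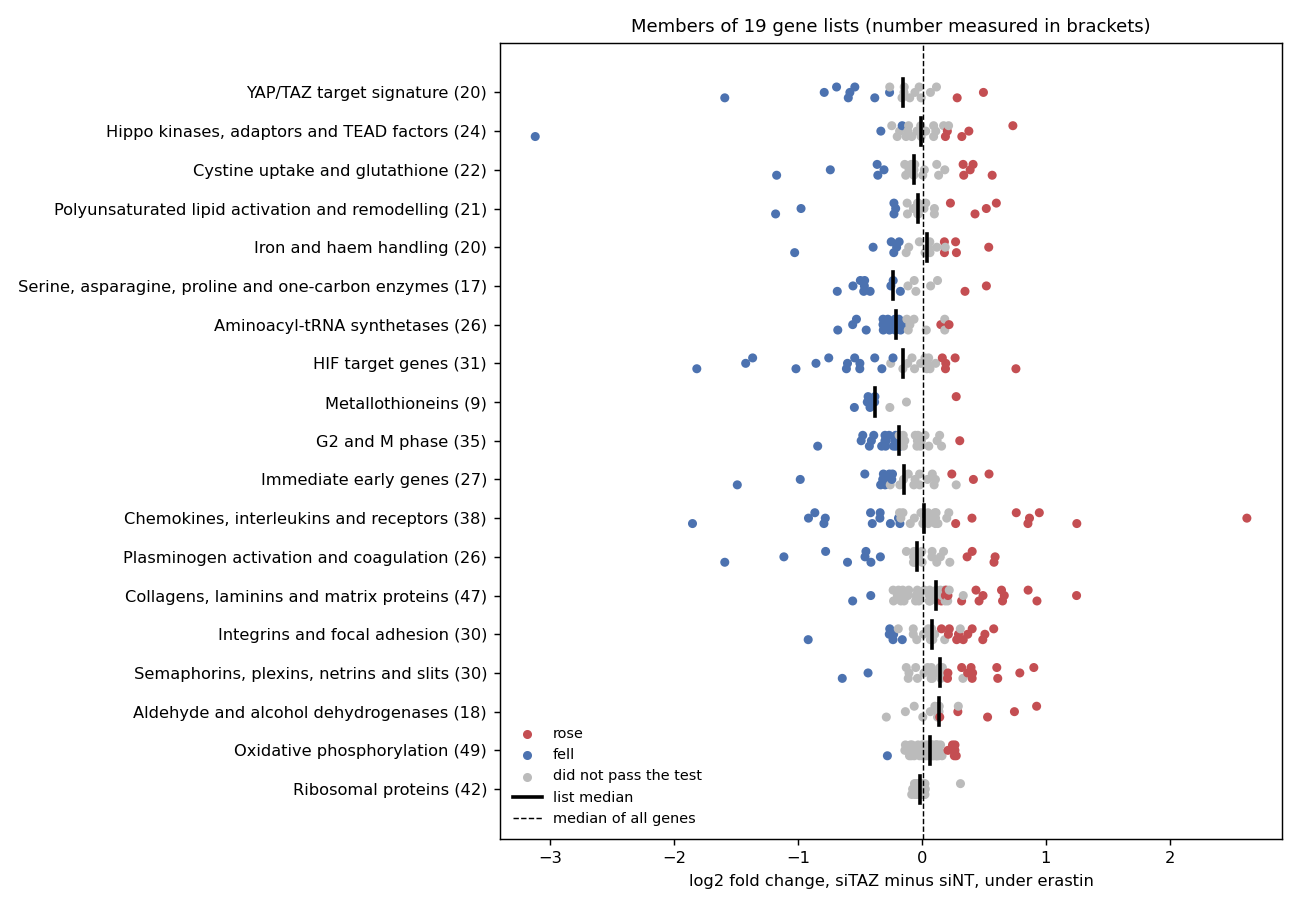
Each point is a measured member of 1 of 19 gene lists, placed by its log2 fold change of siTAZ against siNT under erastin, red where it rose, blue where it fell and grey where it did not pass the test; thick bars are list medians and the dashed line is the median of all genes at 0.01. The medians run from −0.38 (metallothioneins) to 0.15 (semaphorins, plexins, netrins and slits), and the ribosomal proteins sit at −0.01 with no call.

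Genes of amino acid enzymes fell more often than they rose, while ATF4 itself was not called. The activity of the stress response was not tested. ATF4 was at 12.77, 12.81 and 12.74 on the siNT arrays and at 12.73, 12.60 and 12.74 on the siTAZ arrays, which overlapped, and its difference was −0.08 ± 0.05 (adjusted p = 0.321 in limma). Of 17 enzymes of serine, asparagine, proline and one-carbon metabolism 10 fell and 2 rose, and with the actin covariate 7 fell and 2 rose; the list median was −0.23. ASNS, asparagine synthetase, was at 11.17, 11.23 and 11.23 and at 10.75, 10.69 and 10.80, a fall of 0.47 with no overlap. SHMT2 fell by 0.56 and MTHFD2 by 0.46, both mitochondrial one-carbon enzymes, and PCK2, the mitochondrial phosphoenolpyruvate carboxykinase, by 0.42. PSAT1, an enzyme of serine synthesis, had the largest difference of the list, −0.68 ± 0.18, but siNT replicate 3 was high (7.49, 7.59 and 8.37 against 7.30, 7.01 and 7.07), and with the actin covariate its difference was −0.10 (adjusted p = 0.578 in limma). The rises were ASS1, which makes argininosuccinate, at 0.52 ± 0.05 and PSPH, which completes serine synthesis, at 0.35. The PSPH call was lost with the actin covariate, and its second probe set gave 0.04. Without siNT replicate 2, siTAZ replicate 1 or siTAZ replicate 2 the list held 1 rise.

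The promoters of ASNS and CHAC1 are shown as examples of the composite motif that ATF4 binds. ASNS lies at chr7:97872359-97872658 on the minus strand and CHAC1 at chr15:40953221-40953520 on the plus strand.
ASNS: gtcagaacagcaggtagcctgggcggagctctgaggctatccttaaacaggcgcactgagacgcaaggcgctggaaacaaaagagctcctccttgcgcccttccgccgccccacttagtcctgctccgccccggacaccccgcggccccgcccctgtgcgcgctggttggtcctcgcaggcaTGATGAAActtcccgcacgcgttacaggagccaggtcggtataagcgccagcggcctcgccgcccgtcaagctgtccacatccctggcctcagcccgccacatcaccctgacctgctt
CHAC1: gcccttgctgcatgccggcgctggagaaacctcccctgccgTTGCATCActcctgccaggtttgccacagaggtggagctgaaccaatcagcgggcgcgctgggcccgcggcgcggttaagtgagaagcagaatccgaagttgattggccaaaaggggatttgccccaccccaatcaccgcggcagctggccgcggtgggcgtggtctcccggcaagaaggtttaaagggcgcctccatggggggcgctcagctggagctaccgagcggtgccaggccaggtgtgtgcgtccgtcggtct
Each held 1 match, and ATF3 was the other of the 3 genes with a match among the 16 fixed genes whose promoters were matched. Unlike ASNS and CHAC1, ATF3 did not pass the test: its groups overlapped, with a difference of −0.02 ± 0.06 (adjusted p = 0.865 in limma).

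Of 26 measured aminoacyl-tRNA synthetase genes, which charge tRNAs with amino acids, 17 fell and 2 rose, with a median of −0.21. With the actin covariate 9 fell and 0 rose. The rises also numbered 0 without siTAZ replicate 1 or siTAZ replicate 3, and 1 without siNT replicate 1, siNT replicate 2 or siTAZ replicate 2. VARS1, the valine enzyme, was at 9.45, 9.27 and 9.57 on the siNT arrays and at 8.76, 8.71 and 8.77 on the siTAZ arrays, a fall of 0.68 with separate groups and a second probe set at −0.27. LARS1, the leucine enzyme, fell by 0.56, the mitochondrial HARS2 by 0.53, FARSA by 0.31 and IARS2 by 0.31, and these were called in both fits. Of 21 amino acid transporters 3 rose and 4 fell, beside 15.6% and 12.6% of all genes. With the actin covariate it was 2 and 3. SLC7A5 and SLC1A5, carriers of large neutral amino acids and of glutamine, fell by 0.38 each, and SLC1A1, a glutamate and cysteine carrier, rose from 9.84, 9.94 and 10.05 to 10.61, 10.54 and 10.58, a change of 0.63 ± 0.06 with a second probe set at 0.15.

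Regulators of the stress response split. Of 19 measured, 4 rose and 7 fell, and with the actin covariate 4 rose and 4 fell. EIF2AK3, the kinase PERK of the endoplasmic reticulum, was at 8.39, 8.38 and 8.58 on the siNT arrays and at 9.15, 9.10 and 9.07 on the siTAZ arrays, a rise of 0.66 ± 0.07. DDIT3, the factor CHOP, fell by 0.36 and PPP1R15A, which reverses eIF2α phosphorylation, by 0.55. The pseudokinases of the Tribbles family went apart. TRIB1 was at 9.27, 9.23 and 9.24 and at 10.45, 10.42 and 10.45, a rise of 1.19 ± 0.06, while TRIB3 was at 11.56, 11.48 and 11.54 and at 10.83, 10.84 and 10.84, a fall of 0.69. The C/EBP factors did the same, with CEBPB down by 0.66 on the log2 scale and CEBPD up by 0.59 ± 0.05.

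Of 21 genes that control mTORC1, 6 rose and 4 fell, and 4 and 3 with the actin covariate. PIK3R1, a regulatory subunit gene of phosphoinositide 3-kinase, was at 8.29, 8.22 and 8.46 on the siNT arrays and at 9.37, 9.24 and 9.21 on the siTAZ arrays, a change of 0.95 ± 0.07 that its other probe sets shared (0.57 and 0.97). PIK3R3, another regulatory subunit gene, rose by 0.64 ± 0.06, with a second probe set at −0.02. SESN1, a sestrin that restrains mTORC1, rose by 0.83 ± 0.06. EIF4EBP1, the translation repressor that mTORC1 phosphorylates, fell by 0.41. In the IGF axis 5 of 15 genes rose and 1 fell, and 4 and 1 with the actin covariate. The receptor gene IGF1R rose by 0.48 ± 0.07, with other probe sets at 0.31 and 0.05. The insulin receptor gene INSR was called upward on its brightest probe set (0.35 ± 0.06), but the second gave −0.23, and the mean of both, 0.06, did not pass the test.

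Of 31 measured targets of hypoxia-inducible factors 14 fell and 5 rose. With the actin covariate it was 14 and 3. The 14 falls were also counted when any 1 of the 6 arrays was left out, whereas the rises numbered 2 to 4, fewest without siTAZ replicate 1; they numbered 3 without siNT replicate 2, siTAZ replicate 2 or siTAZ replicate 3. The members with the largest falls were ADM, INSIG2, ANGPTL4, the glucose transporter gene SLC2A3 and BNIP3L, a mitophagy receptor gene. Other SLC2A3 probe sets gave −0.68 and −0.29. ANGPTL4, a secreted inhibitor of lipoprotein lipase, was at 10.03, 9.99 and 9.94 on the siNT arrays and at 8.62, 8.61 and 8.63 on the siTAZ arrays, a fall of 1.37 with very little spread among siTAZ arrays. VEGFA, the angiogenic factor, was at 10.80, 10.59 and 10.79 and at 10.22, 10.14 and 10.19, a fall of 0.54 that all 4 of its probe sets shared (−0.48 to −0.66). CA12, a carbonic anhydrase, rose from 10.14, 10.02 and 10.01 to 10.78, 10.80 and 10.86, a change of 0.76 ± 0.06. Of 15 measured oxygen sensors and HIF subunits 2 rose and 2 fell, and 4 and 2 with the actin covariate. EGLN1 (PHD2) fell by 0.50, while the sensor gene HIF1AN rose by 0.22 and ARNT2 by 0.33. The rises of this list numbered 0 to 6 with 1 array left out. In glycolysis and the pentose phosphate pathway 10 of 30 fell and 4 rose, and 7 fell and 3 rose with the actin covariate. HK2 (hexokinase) fell by 0.79 and RPIA (ribose 5-phosphate isomerase) by 0.78. The rises of the glycolysis list numbered 2 without siNT replicate 1, siTAZ replicate 1 or siTAZ replicate 3.

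Metallothioneins were lower. Of 9 measured genes of the metallothionein list, 6 fell and 1 rose, and 7 and 1 with the actin covariate. These proteins bind zinc and copper, and their near-identical sequences mean that probe sets of one gene may report another. MT2A was at 13.32, 13.34 and 13.31 on the siNT arrays and at 12.87, 12.94 and 12.90 on the siTAZ arrays, a fall of 0.42 with separate groups. MTF1, the zinc-sensing transcription factor that drives these genes, was the rise, at 0.28. Among 17 zinc and metal carriers 2 rose and 2 fell, no larger shares than the 15.6% and 12.6% of all genes. With the actin covariate 3 rose and 1 fell. SLC39A6, a zinc importer, was at 12.63, 12.56 and 12.68 on the siNT arrays and between 10.95 and 11.01 on the siTAZ arrays, a fall of 1.64 with a second probe set at −2.15. SLC30A1, the zinc exporter of the plasma membrane, was at 10.92, 10.81 and 10.98 and at 11.70, 11.66 and 11.66, a rise of 0.77 ± 0.06.

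Of 47 collagens, laminins and other matrix proteins 14 rose and 2 fell, with a median of 0.12, and with the actin covariate 8 rose and 2 fell. FN1, fibronectin, was at 12.53, 12.61 and 12.46 on the siNT arrays and at 13.37, 13.36 and 13.44 on the siTAZ arrays. It rose by 0.86 ± 0.06, and its other 5 probe sets gave 0.59 to 0.95. MATN2, a matrilin of basement membranes, was at 8.61, 8.43 and 8.67 and at 9.90, 9.80 and 9.76, a rise of 1.25 ± 0.07. The laminin chain genes LAMC1 and LAMA5 rose by 0.64 ± 0.06 and 0.66 ± 0.08, and COL4A5, a basement membrane collagen gene, by 0.65 ± 0.12. FBN1, fibrillin, rose by 0.93 ± 0.10 from a dim signal, with another probe set at 0.10, and a second LAMC1 probe set gave 0.24. The 2 falls were COL6A3 (−0.56) and COL13A1 (−0.41). The call of COL13A1 was lost with the actin covariate, and its other probe sets gave −0.06 and −0.03. Without siNT replicate 3 there were 4 falls.

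Of 30 integrin and focal adhesion genes, 11 rose and 6 fell, but with the actin covariate it was 5 and 2. Rises also numbered 5 without siTAZ replicate 1 or siTAZ replicate 2 and 7 without siNT replicate 1. Among the members called in both fits were FERMT2, which encodes the integrin activator kindlin-2 and rose by 0.58 ± 0.06, TNS1, a tensin gene with a rise of 0.51 ± 0.05, and ITGB2, the leukocyte integrin beta chain gene, which fell from 7.42, 7.56 and 7.62 to 6.41, 6.62 and 6.81, a change of −0.92 ± 0.10. Other probe sets gave 0.77 and 0.06 for FERMT2 and 0.01 to 0.48 for TNS1. In the contractile and serum response factor list 7 of 26 rose and 4 fell, beside 15.6% and 12.6% of all genes. With the actin covariate it was 6 and 2. MYL9, a regulatory myosin light chain, was at 7.12, 6.84 and 7.10 and at 7.75, 7.86 and 7.87, a rise of 0.81 ± 0.10, and ACTA2, smooth muscle actin, was at 7.49, 7.45 and 7.61 and at 8.31, 8.18 and 8.22, a rise of 0.72 ± 0.06 with a dim probe set at 0.05.

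Of 30 semaphorins, plexins, netrins, slits and their receptors, 11 rose and 2 fell, and with the actin covariate 9 rose and 2 fell; without siTAZ replicate 1 it was 7 that rose. There was 1 fall without siNT replicate 2, siNT replicate 3, siTAZ replicate 1 or siTAZ replicate 3. SEMA4D was at 7.34, 7.22 and 7.50 on the siNT arrays and at 8.21, 8.22 and 8.34 on the siTAZ arrays, a rise of 0.90 ± 0.08. The slit receptor gene ROBO1 was at 7.69, 7.54 and 7.72 and at 8.36, 8.46 and 8.49, a rise of 0.79 ± 0.06, and its ligand gene SLIT3 rose by 0.60 ± 0.09. PLXNA1, a semaphorin receptor gene, rose by 0.61 ± 0.05. Other probe sets gave 0.58 and 0.20 for SLIT3 and 0.27 for PLXNA1. SEMA3C went the other way, with a fall of 0.64 that its second probe set shared (−0.54). In the Eph and ephrin list 3 of 18 rose and 1 fell, near the 15.6% of rises among all genes, and 1 rose and 2 fell with the actin covariate and 2 fell without siNT replicate 2. EPHA4, a receptor gene, was at 5.76, 6.01 and 6.11 and at 7.13, 7.10 and 7.16, a rise of 1.17 ± 0.09.

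Epithelial genes were divided within a single list. Of 31 keratins, claudins and junction genes 5 rose and 6 fell, beside 15.6% and 12.6% of all genes. With the actin covariate it was 5 and 4. KRT18, a simple-epithelium keratin, was at 10.48, 10.55 and 10.48 on the siNT arrays and at 9.48, 9.42 and 9.58 on the siTAZ arrays, a fall of 1.01 with groups 0.90 apart. DSG2, a desmosomal cadherin, was at 11.60, 11.48 and 11.61 and at 10.76, 10.65 and 10.65, a fall of 0.88, and the tight junction gene CLDN4 fell by 1.04. DSC2, another desmosomal cadherin, rose by 1.65 ± 0.16 from dim signals of 4.32, 4.07 and 4.13 to 5.69, 5.71 and 6.08, with a second probe set at 0.25. EPCAM rose by 0.60, KRT19 by 0.54 and JUP by 0.46. Among mesenchymal genes 6 of 18 rose and 2 fell, and 6 and 2 with the actin covariate; without siNT replicate 1 there was 1 fall. TCF4, a helix-loop-helix factor, was at 7.58, 7.50 and 8.02 and at 8.86, 8.92 and 8.96, a rise of 1.21 ± 0.12, and all 7 of its probe sets gave 0.61 or more. SNAI2 rose by 0.46 ± 0.13, but the call was lost without siNT replicate 1 (0.36), siNT replicate 2 (0.41) or siTAZ replicate 3 (0.42). ZEB2 rose by 0.58 ± 0.19, but the call was lost without siNT replicate 1 (0.62), siNT replicate 2 (0.36), siTAZ replicate 1 (0.50) or siTAZ replicate 2 (0.57). TGM2, tissue transglutaminase, fell from 10.10, 10.06 and 10.05 to 8.79, 8.83 and 8.94, a change of −1.22 ± 0.06 with other probe sets from −0.84 to −0.35. Of 22 tubule lineage genes 5 rose and 1 fell, and 6 and 0 with the actin covariate; without siNT replicate 3 there were 2 falls. Among the rises were PAX2 (0.40 ± 0.07, with a second probe set at 0.16), CDH16 (0.44 ± 0.08) and CDH6 (0.68 ± 0.05), and HAVCR1, the injury marker KIM-1, fell by 0.48, a call lost with the actin covariate.

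Secreted immune factors changed in both directions. Of 38 chemokines, interleukins and receptors 8 rose and 12 fell, and 7 and 9 with the actin covariate. The neutrophil chemokine gene CXCL1 was at 10.17, 10.10 and 10.08 on the siNT arrays and at 9.06, 9.25 and 9.28 on the siTAZ arrays, a fall of 0.92. CXCL8, another of this class, was at 9.68, 9.69 and 9.89 and at 8.85, 8.93 and 8.88, a fall of 0.87, and IL6 was at 8.99, 8.95 and 8.92 and at 8.10, 8.15 and 8.23, a fall of 0.79. The monocyte chemokine gene CCL2 was at 9.64, 9.68 and 9.39 and at 10.31, 10.60 and 10.37, a rise of 0.86 ± 0.12, and CX3CL1, fractalkine, was at 7.49, 7.38 and 7.51 and at 8.36, 8.33 and 8.30, a rise of 0.87 ± 0.05. The receptor genes IL1R1 and LIFR rose by 0.95 ± 0.06 and 1.25 ± 0.20, the second from dim signals of 4.13, 4.09 and 4.94, and another IL1R1 probe set gave 0.19. TNFAIP3, the NF-kB feedback inhibitor A20, rose by 0.49 ± 0.05, and 5 of 19 NF-kB genes rose and 3 fell, with 5 and 0 in the covariate fit. Without siNT replicate 2 or siTAZ replicate 1 these rises numbered 3.

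Genes of clotting and matrix proteolysis fell more often than they rose, with 8 of 26 down and 4 up, beside 12.6% and 15.6% of all genes. With the actin covariate it was 9 and 4. F3, which starts coagulation, was at 9.05, 8.98 and 9.06 on the siNT arrays and at 7.31, 7.55 and 7.46 on the siTAZ arrays. The anticoagulant surface proteins went the same way: thrombomodulin, THBD, was at 8.14, 7.79 and 8.14 and at 6.88, 6.82 and 7.03, a fall of 1.11, and the protein C receptor gene PROCR was at 10.49, 10.44 and 10.41 and at 9.68, 9.59 and 9.74, a fall of 0.78. The urokinase gene PLAU and its receptor gene PLAUR fell by 0.34 and 0.45, and of the other PLAUR probe sets 1 gave −0.55 and the other −0.0038. SERPINE2 and TIMP2, protease inhibitor genes, rose by 0.36 and 0.41. Among 27 immediate early genes 11 fell and 3 rose, and 8 and 5 with the actin covariate. KLF4 fell by 0.98, with another probe set at −0.25, and FOSL1 by 0.33, while EGR1 rose by 0.42 ± 0.06, with another probe set at 0.09. Of 27 EGFR ligands and ERK feedback genes 9 fell and 3 rose, and 7 and 3 with the actin covariate. DUSP5, a phosphatase gene, fell by 0.55 and PHLDA1 by 0.59. DUSP6, another phosphatase gene, fell by 0.47, with other probe sets at −0.61 and −0.18, and its call was lost with the actin covariate (−0.29, adjusted p = 0.166 in limma).

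TGF-beta signalling genes and other developmental pathways moved gene by gene. Of 34 TGF-beta family genes 8 rose and 5 fell, beside 15.6% and 12.6% of all genes. With the actin covariate it was 5 and 2. The rises numbered 5 without siTAZ replicate 3, and the falls 3 without siNT replicate 3 or siTAZ replicate 2. SMAD3, a receptor-activated SMAD, was at 10.10, 10.06 and 10.09 on the siNT arrays and at 9.47, 9.43 and 9.50 on the siTAZ arrays, a fall of 0.62, but a second bright probe set gave 0.34 and the others −0.02 and −0.08. ID3, a target of BMP signals, was at 8.79, 8.83 and 8.62 and at 9.78, 9.66 and 9.87, a rise of 1.02 ± 0.10. SMAD4 differed by −0.72 ± 0.16, and its call was lost with the actin covariate (−0.25) and its second probe set gave −0.14. In the Wnt list 7 of 33 rose and 4 fell, beside the same shares of all genes, and 9 and 4 with the actin covariate. DKK3, a secreted Dickkopf protein, was at 11.60, 11.52 and 11.36 and at 10.12, 10.22 and 10.21, a fall of 1.31 with other probe sets from −1.71 to 0.01. WNT5A fell by 0.72, and its receptor gene ROR1 rose by 0.65 ± 0.06. In the Notch list 5 of 23 rose and 4 fell, and 3 and 4 with the actin covariate. The glycosyltransferase gene MFNG fell by 0.81, with other probe sets at −0.20 and 0.03, and the target gene HEY1 by 0.42.

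Among the 35 measured G2/M genes 18 fell, 1 rose and 16 did not pass the test, and 10 fell and 1 rose with the actin covariate. The rise was MKI67, the proliferation marker, at 0.31, with other probe sets from 0.11 to 0.33; without siNT replicate 3 there were 2 rises. KIF23, a kinesin of cytokinesis, was at 8.79, 8.63 and 8.78 on the siNT arrays and at 7.95, 7.94 and 7.79 on the siTAZ arrays, the largest fall of the list at 0.84. The 36 replication genes held 9 falls and 0 rises in limma (2 were higher and 12 lower at an unadjusted p under 0.05), and 27 did not pass the test. The falls were 5 with the actin covariate, without siNT replicate 3 and without siTAZ replicate 2, and there was 1 rise with the covariate and 1 without siNT replicate 1. CCNE2, a cyclin of S phase entry, was at 8.31, 8.12 and 8.53 and at 7.55, 7.54 and 7.59, a fall of 0.76, and UNG, the uracil glycosylase gene, fell by 0.73. CDK6 fell by 0.90 and CDK4 by 0.38, while the D cyclin genes CCND2 and CCND3 rose by 0.84 ± 0.12 and 0.41 ± 0.05, with other CCND2 probe sets at 0.45 and 0.33. The histone variant gene MACROH2A1 was at 12.61, 12.56 and 12.60 and at 11.52, 11.43 and 11.52, a fall of 1.10 that its other probe sets shared (−1.25 and −1.43). The core histone genes H2BC12 and H2AC6 both rose, by 0.84 ± 0.06 and 0.84 ± 0.08.

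Heat shock and p53 genes were split as well. Of 21 cytosolic heat shock genes 5 rose and 6 fell, and 5 and 4 with the actin covariate, with the small heat shock protein CRYAB up by 0.74 and the DNAJ cochaperones DNAJB6 and DNAJB4 down by 0.76 and 0.74. Of 21 p53 genes 4 rose and 6 fell, and 4 and 3 with the actin covariate. DDB2, a DNA repair gene, fell by 0.51. MDM2, the ligase that degrades p53, rose by 0.50 on its brightest probe set (0.80 with the covariate), but the other 4 gave −0.07 to 0.15, and the mean of all, 0.12, did not pass the test. Of 35 interferon-stimulated genes 4 rose and 4 fell, and 1 and 2 with the actin covariate. Without the covariate these are no larger shares than the 15.6% of rises and 12.6% of falls among all genes. The rises numbered 1 without siNT replicate 1 or siNT replicate 2 and 0 without siTAZ replicate 2 or siTAZ replicate 3, and the falls 2 without siNT replicate 3 or siTAZ replicate 1.

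Redox, lysosome and secretory genes were mostly mixed. Of 29 NRF2 targets and thioredoxin genes 9 rose and 6 fell, and 7 and 3 with the actin covariate. AKR1C3, an aldo-keto reductase, was at 10.58, 10.46 and 10.49 on the siNT arrays and at 11.32, 11.38 and 11.34 on the siTAZ arrays, a rise of 0.84 ± 0.06, and TXNRD1, thioredoxin reductase, fell by 0.36. Among the 18 aldehyde and alcohol dehydrogenases 5 rose and 0 fell in limma (8 were higher and 2 lower at an unadjusted p under 0.05), and 6 and 1 with the actin covariate. ALDH2 was at 7.82, 7.93 and 7.88 and at 8.56, 8.61 and 8.70, a rise of 0.75 ± 0.07, and ALDH5A1 rose by 0.93 ± 0.12 with a second probe set at 0.16; the smallest call, ALDH9A1 at 0.14, was lost when any 1 of the 6 arrays was left out. In the lysosome LAMP2 rose by 0.95 ± 0.07, though its other probe sets gave 0.19 and 0.18, and the regulator gene TFEB by 0.43 ± 0.06, with another probe set at 0.11. The autophagy and lysosome list of 42 held 8 rises and 3 falls, beside 15.6% and 12.6% of all genes. With the actin covariate it was 8 and 1. The falls also numbered 1 without siTAZ replicate 2. EDEM1, which sorts misfolded glycoproteins for degradation, was at 7.46, 7.53 and 7.68 and at 8.51, 8.61 and 8.58, a rise of 1.01 ± 0.07. Its list of 33 endoplasmic reticulum and secretory genes held 8 rises and 5 falls, and 4 and 3 with the actin covariate. The sterol enzyme gene SC5D rose by 0.88 ± 0.06, with a second probe set at −0.01. Its list of 26 sterol and fatty acid synthesis genes held 4 rises and 6 falls, beside 15.6% and 12.6% of all genes. With the actin covariate it was 4 and 5.

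Each of 3 lists of large complexes had a smaller share of calls than the 28.2% of all genes. Of 42 ribosomal protein genes 0 rose and 0 fell in limma, with 0 higher and 0 lower at an unadjusted p under 0.05. There was 1 fall with the actin covariate and 1 rise without siNT replicate 1. The median of the ribosomal list was −0.01. Its groups did not overlap in 3 genes, all lower, beside 38.8% of all genes. Of 29 proteasome subunits 4 fell by at most 0.56 (PSMD2) on the probe sets that stood for them and 0 rose in limma. There was 1 fall in the covariate fit and 2 when any 1 of the 6 arrays was left out. The probe sets of PSMD12 disagreed: the one that stood for it gave −0.16, and another of like signal (siNT means 10.38 and 10.48) gave −1.11. Of 49 genes of oxidative phosphorylation 6 rose by at most 0.28 (NDUFB5) and 1 fell, and with the actin covariate 1 rose and 0 fell. Separation was more common here: the siTAZ values lay wholly above the siNT values in 19 of these genes and wholly below in 5. Among all 11963 genes it was 2523 and 2122. The rises numbered 3 without siNT replicate 3, siTAZ replicate 2 or siTAZ replicate 3.

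Whether the effect of silencing differed between the media was tested as an interaction over all genes. In limma 0 genes (0%) were called. Without adjustment 764 genes had a p under 0.05, of which 476 had a more positive difference under erastin and 288 a more negative one. The smallest adjusted p was 0.0583, shared by SLC7A11, ASNS and INHBE. ASNS was at 11.21 ± 0.03 and 10.75 ± 0.06 (SD, n = 3) under erastin, whereas in vehicle it differed by −0.99. SLC7A11 had opposite signs in the media, 0.33 ± 0.06 under erastin and −0.28 in vehicle. INHBE, an activin subunit gene, was at 7.79, 7.58 and 8.06 on the siNT arrays and at 7.43, 7.43 and 7.63 on the siTAZ arrays, which overlapped, for a difference of −0.31 ± 0.10 against −1.33 in vehicle. Its call under erastin was lost with the actin covariate. These 3 genes were called for the interaction after centring each array, after a second quantile normalization, without the dimmest genes under the 25th percentile and with array weights, so the count of 0 depends on such choices. It was 8 without the genes under the 50th percentile, 10 with a trended and robust fit, and 1 (INHBE) without siNT replicate 3.

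Of the 3369 genes called under erastin, 2539 were called in vehicle with the same sign and 2 with the opposite sign. The remaining 828 were called under erastin and not in vehicle, with a median size of 0.26 and none of 2-fold or more, and 0 of them were called for the interaction, so none is shown to differ between the media. An example is CCL5, a T cell chemokine gene, which rose from 5.98, 5.70 and 5.93 to 6.53, 6.48 and 6.88 under erastin, a change of 0.76 ± 0.11, and differed by 0.08 in vehicle. Its interaction had an adjusted p of 0.614 in limma. CHAC1 fell by 1.17 under erastin and by 0.90 in vehicle, again without a called interaction.

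**Figure D5:**
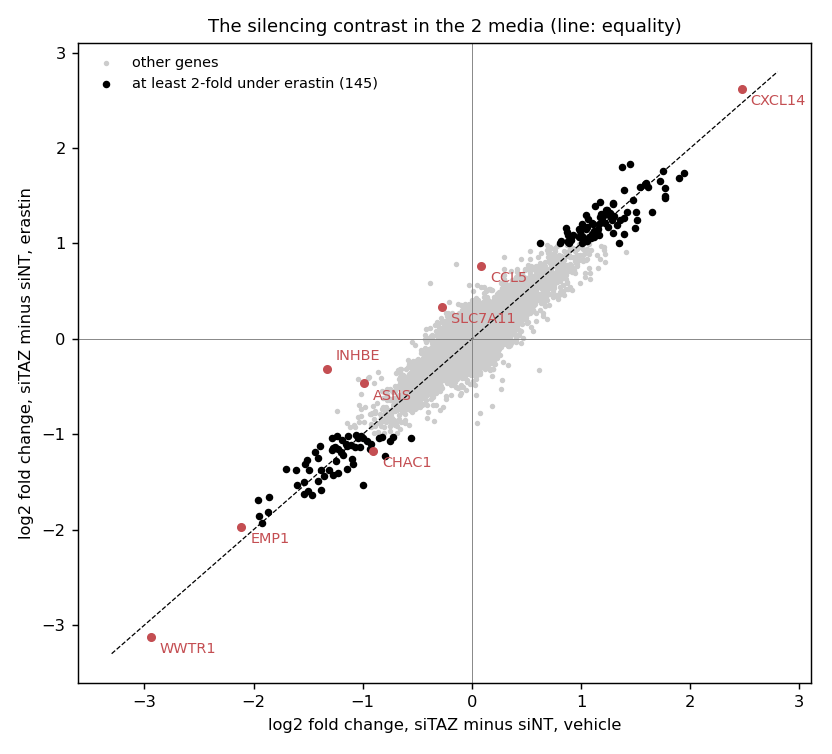
Log2 fold change of siTAZ against siNT in vehicle (x axis) and under erastin (y axis) for every gene; black points are the 145 genes that changed at least 2-fold under erastin, red points are named genes, and the dashed line marks equal values. The black points lie along the line in both directions, and INHBE, SLC7A11, ASNS and CCL5 lie above it.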

How the data were processed

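RCC4 cells were profiled on 12 Affymetrix arrays in 4 groups of 3. The deposited log2 signals were made by the authors in Affymetrix Expression Console with RMA, per the submitters' processing notes; their versions were not given in the sources used here. RMA normalizes all arrays to one distribution, so a global shift of RNA would not be seen. Of 22277 probe sets, 62 controls, 1043 with several genes and 2108 with none in the platform annotation, which can be old, were left out. The remaining 19064 gave 11963 genes, and where a gene had several (4310 genes) the one brightest on average over 12 arrays stood for it. Arrays give no read depth, and their number limits the precision. The fit was limma 3.58.1 in R 4.3.3 over the 12 arrays and 4 groups (8 residual degrees of freedom), with Benjamini-Hochberg adjustment over all genes at 0.05. It was tested on simulated data.

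The members and lists were chosen with earlier results of these data known. Named genes were a fixed set, the 25 largest rises and the 25 largest falls, and up to 6 called members of each list with the largest change. Other called list members, and genes named for the interaction, were named after their values were seen. Alternatives were centring, a second quantile normalization, filters on dim genes, the mean of all probe sets, other limma settings, control signals as covariates, a replicate block, each erastin array left out in turn and an adjusted p under 0.01. Promoters were taken from RefSeq on GRCh38.p14.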

Additional observations from a re-analysis of the deposited data

How the results depend on the processing

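The count of rises was 1867. It was 996 with the actin covariate fitted on the 6 erastin arrays alone and 1243 with the replicate block and the actin covariate together. The count of falls was 1502, and it was 540 and 781 in those fits and 965 at an adjusted p under 0.01. With 1 erastin array left out in turn, rises ran from 1492 to 1861, falls from 1181 to 1388, and changes of at least 2-fold from 137 to 156. WWTR1 ran from −3.18 to −3.08 in these fits. The interaction count ran from 0 to 1 there. It was 3 after centring on array medians, after a second quantile normalization, without genes under the 25th percentile and with array weights, 8 without genes under the 50th percentile and 10 with a trended and robust fit. The sign turned for POLE2 (0.031 with the actin covariate on the 6 erastin arrays) and SLC7A6 (0.12 as the mean of all probe sets). Apart from these, the causes were not tested. Of 311 named genes besides WWTR1, 65 lost their call with the actin covariate, 93 with it on the 6 erastin arrays, and 14 to 24 with 1 array left out.

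The replicate numbers were not taken to pair the arrays, since deviations of same-numbered siNT and siTAZ erastin arrays correlated at −0.05, 0.36 and 0.30, not all above 0.1. Arrays 2 and 3 correlated best with their own number and array 1 did not, a hint from the data and not from the design. With the replicate block 1730 genes rose and 1374 fell, 145 changed at least 2-fold, WWTR1 was at −3.12 and the interaction count was 0. Low signals limit the dim genes: 4341 genes had a mean under 6 in both erastin groups.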
